A study of Homo sapiens with 3 samples.

Results

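The comparison set a Jurkat library grown with oxamate and lactate against one grown with oxamate alone. Jurkat is an established human T-lineage acute lymphoblastic leukaemia line. The control group had standard medium, the oxamate group sodium oxamate at 50 mM, and the oxamate+lactate group the same dose plus L-sodium lactate at 10 mM, all for 48 hours in RPMI medium with fetal bovine serum. Each group is 1 library of polyadenylated RNA, so 2 of the 3 libraries of the series carry the comparison. Differences could not be set against replicates, and there is no test. Among 17329 genes, 12292 had a mean over the 3 libraries of at least 50 normalized counts. The genes described here are the 142 of these that were at least 1.5-fold apart, 31 higher and 111 lower with lactate, on the scale log2((value + 1)/(value + 1)). Those ratios chose the genes, so their size is a description and supports nothing.

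Oxamate is a pyruvate analogue that inhibits lactate dehydrogenase, the enzyme that turns pyruvate into lactate in glycolytic cells. Lactate is a fuel, a donor of reducing equivalents and the source of lysine lactylation, a histone modification. The series asked how lactylation of histone H3 at lysine 18 bears on transcription. Adding lactate back to inhibited cells asks which transcripts differ once lactate is supplied from outside. The RNA values measure neither lactate nor the histone mark. Lactate was given as its sodium salt and no library had the same sodium load without lactate, so effects of lactate and of added sodium cannot be told apart. No library had lactate without oxamate. In bulk RNA, fewer cells of a kind and less RNA per cell cannot be told apart.

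Over the 12292 genes, 1.16% were at least 1.5-fold apart, 0.252% higher and 0.903% lower. The counts in the gene lists below are to be read beside these shares, and no list was tested. The median log2 ratio of all genes was -0.09 (SD across genes 0.19), and relative to that median 66 genes (0.537%) were 1.5-fold higher and 52 (0.423%) lower. With the libraries set to equal gene totals 78 were higher and 42 lower, and equal spike-in sums gave 56 higher and 68 lower, so which side held more genes changed with the scale. Only 1 gene (0.00814%) reached 2-fold, HSPA8. The libraries summed over genes to 8171633 to 8821115 normalized counts. The 21 spike-in RNAs of the ERCC mix with a mean of at least 50, which were added to RNA extracted from equal numbers of cells, had a median log2 ratio of -0.08 (SD 0.13), and none was 1.5-fold apart (range -0.39 to 0.23). Of 13 T-lineage markers, 12 were in the table and 11 of these over the floor, and the sums of the 12 in control, oxamate and oxamate+lactate were 17558, 21005 and 19042. Of 8 B-lineage markers 5 were listed and summed to 105 to 143, of 6 fibroblast markers only the collagen gene COL1A1 was listed (202, 202 and 165 normalized counts), and the myeloid, erythroid and epithelial markers have no row in the table used here.

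**Figure D1:**
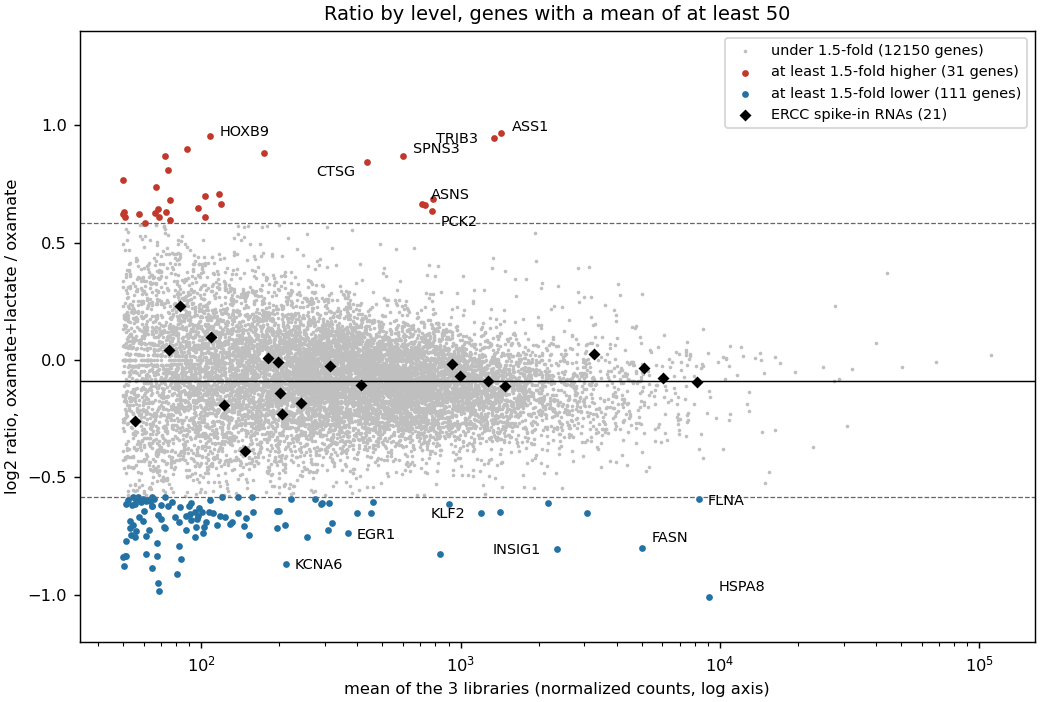
Log2 ratio of oxamate+lactate to oxamate (y axis) against the mean of the 3 libraries in normalized counts (x axis, log), for 12292 genes and 21 ERCC RNAs (black diamonds), 1 library per condition. The solid line is the median of all genes (-0.09) and the dashed lines are 1.5-fold; red marks the 31 higher genes and blue the 111 lower ones, most of them at low values.

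Promoters are shown for the genes that stand at the ends of the 3 gene groups described first, sterol genes, heat shock chaperones and amino acid response genes, so that the letters upstream of genes that lay together can be read. Each line is the stretch of 250 bases before the annotated start, 5′ to 3′ on the gene's strand, from the RefSeq table of GRCh38.p14. Capitals mark matches, on either strand, to a heat shock element (GAA, TTC and GAA in turn, with 2 bases of any kind between them), a sterol regulatory element (TCACNCCAC), an E-box (CACGTG) or an amino acid response element (TGATGNAA). The regions are chr11:123062137-123062386 (HSPA8, minus strand), chr13:31162389-31162638 (HSPH1, minus), chr7:155297628-155297877 (INSIG1, plus), chr11:71448394-71448643 (DHCR7, minus), chr7:97872409-97872658 (ASNS, minus) and chr20:381045-381294 (TRIB3, plus).
HSPA8: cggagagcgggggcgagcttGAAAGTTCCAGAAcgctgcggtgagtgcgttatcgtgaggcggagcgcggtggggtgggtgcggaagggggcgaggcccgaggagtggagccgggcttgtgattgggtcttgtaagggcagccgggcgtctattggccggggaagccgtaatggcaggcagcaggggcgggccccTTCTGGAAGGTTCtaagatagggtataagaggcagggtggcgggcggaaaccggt
HSPH1: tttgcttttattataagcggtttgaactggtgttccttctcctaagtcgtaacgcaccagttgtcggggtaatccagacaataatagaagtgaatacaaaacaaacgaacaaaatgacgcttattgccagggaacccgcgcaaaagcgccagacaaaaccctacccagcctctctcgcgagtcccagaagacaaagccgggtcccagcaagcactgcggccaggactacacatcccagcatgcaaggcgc
INSIG1: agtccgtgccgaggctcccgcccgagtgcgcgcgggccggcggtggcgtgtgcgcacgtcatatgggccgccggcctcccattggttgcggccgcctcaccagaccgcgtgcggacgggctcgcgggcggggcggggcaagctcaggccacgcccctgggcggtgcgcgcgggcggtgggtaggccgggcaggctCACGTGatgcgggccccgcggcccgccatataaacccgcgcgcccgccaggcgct
DHCR7: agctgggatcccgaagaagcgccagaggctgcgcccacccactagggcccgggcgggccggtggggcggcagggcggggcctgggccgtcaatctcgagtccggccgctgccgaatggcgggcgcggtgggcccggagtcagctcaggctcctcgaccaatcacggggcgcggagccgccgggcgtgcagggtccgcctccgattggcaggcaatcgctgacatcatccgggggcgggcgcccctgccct
ASNS: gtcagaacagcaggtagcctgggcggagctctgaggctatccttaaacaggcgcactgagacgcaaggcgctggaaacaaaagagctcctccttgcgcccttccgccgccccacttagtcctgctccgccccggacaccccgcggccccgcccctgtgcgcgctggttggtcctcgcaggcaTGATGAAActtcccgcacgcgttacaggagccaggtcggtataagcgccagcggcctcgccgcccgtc
TRIB3: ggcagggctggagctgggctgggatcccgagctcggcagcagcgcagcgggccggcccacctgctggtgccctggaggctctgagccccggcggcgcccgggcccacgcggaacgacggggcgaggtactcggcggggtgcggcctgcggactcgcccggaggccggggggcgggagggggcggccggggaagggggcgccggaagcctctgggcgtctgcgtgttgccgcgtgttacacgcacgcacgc

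The HSPA8 stretch held 2 matches to the heat shock element, the sequence bound by heat shock factors, beginning 230 and 55 bases before the start. The ASNS stretch held 1 match to the amino acid response element, TGATGAAA, 68 bases before the start, and the INSIG1 stretch held 1 E-box 55 bases before it. HSPH1, DHCR7 and TRIB3 held none of these letters in the stretch shown. In windows of 300 bases (250 before to 50 after the start), the heat shock element stood in 0.490% of 35116 windows, the sterol regulatory element in 1.13%, the E-box in 7.26% and the amino acid response element in 3.62%. By gene, the heat shock element stood in 5 of 21 listed heat shock chaperones with a promoter and in 41 of 8427 genes over the floor. The 5 genes were CHORDC1, HSP90AA1, HSP90AB1, HSPA8 and HSPD1, with log2 ratios of -0.39, -0.52, -0.48, -1.01 and -0.23. The amino acid response element stood in 9 of 32 listed amino acid response genes and in 217 of the 8427 genes, and the sterol element in 0 of 15 sterol synthesis genes. A match is a run of letters, not a bound site.

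Heat shock chaperones help proteins fold, and heat shock factor switches on their genes when misfolded proteins build up. The list here is mainly cytosolic but also holds the mitochondrial chaperones HSPD1 and HSPE1. HSPA8, the constitutive HSP70, had 5996 normalized counts in control, 14220 with oxamate and 7073 with lactate added, 2.01-fold lower with lactate. The oxamate library was the high one and the other two lay close together. Of 26 genes of the list over the floor, 1 was 1.5-fold lower and none higher, 21 lay below the median of all genes, and the list median was -0.23 against -0.09 for all genes. HSPH1, the large HSP110 chaperone, had 991, 1582 and 1095 in control, oxamate and oxamate+lactate (-0.53 for oxamate+lactate against oxamate). BAG1, a nucleotide exchange factor of HSP70, had 489, 756 and 539 (-0.49), and HSP90AB1, the constitutive HSP90, had 12353, 19814 and 14228 (-0.48). The factor HSF1 itself was at 1585, 1946 and 1841 (-0.08), and FKBP5, an HSP90 co-chaperone, was the highest of the list at 865, 659 and 695 (0.08). The 14 chaperonin and prefoldin subunits had a median of -0.13 and the 34 DNAJ co-chaperones one of -0.04, which turned positive under each other scaling, with no gene 1.5-fold apart in either list.

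Cholesterol is built from acetyl-CoA through mevalonate and squalene, and the transcription factors SREBF2 and SREBF1 switch on this route and fatty acid synthesis when membrane sterol is low. Of 21 sterol synthesis genes over the floor, 4 were 1.5-fold lower, none was higher, and 18 lay below the median of all genes (list median -0.31). LSS, lanosterol synthase, had 2093 normalized counts in control, 2687 with oxamate and 1763 with lactate added (1.52-fold lower with lactate). HMGCS1, which makes HMG-CoA at the head of the route, had 998, 1029 and 672 (1.53-fold lower). In HMGCS1 the control and oxamate libraries were alike and oxamate+lactate alone was low, while in LSS oxamate was high and oxamate+lactate was lowest. DHCR7, which makes cholesterol in its last step, had 1208, 1872 and 1195 (1.57-fold lower), with oxamate alone high. Just short of the threshold were IDI1, isopentenyl diphosphate isomerase, at 689, 810 and 544 (-0.57) and SQLE, squalene epoxidase, at 750, 988 and 684 (-0.53). TM7SF2, a sterol reductase, went the other way at 229, 152 and 194 (0.35).

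Among 26 genes of sterol regulation, uptake and efflux, 2 were 1.5-fold lower, none was higher, and 10 lay above the median of all genes. The list median was -0.14, which is -0.05 relative to that of all genes and -0.03 at equal gene totals. INSIG1, one of the 2, which holds SREBF proteins in the endoplasmic reticulum and is itself one of their targets, had 1999, 3228 and 1849 normalized counts in control, oxamate and oxamate+lactate (1.75-fold lower with lactate). SREBF1 had 3472, 3234 and 2554 (-0.34), and SREBF2 had 2325, 2226 and 1827 (-0.28), each lowest in oxamate+lactate. NR1H3, the oxysterol receptor LXR alpha, had 133, 150 and 100 (-0.58), just outside 1.5-fold, and ABCG1, a sterol exporter and LXR target, had 641, 583 and 625 (0.10). Of 25 fatty acid genes, 1 was 1.5-fold lower (list median -0.17). FASN, fatty acid synthase, had 3836, 7130 and 4098 (1.74-fold lower), with oxamate alone high. FADS2, a desaturase of polyunsaturated fatty acids, had 4122, 3640 and 2656 (-0.45), and ACLY, which makes cytosolic acetyl-CoA from citrate, had 3511, 4466 and 3314 (-0.43). ELOVL6, an elongase, stood apart from these at 167, 79 and 102 (0.36). MFSD2A, a transporter of lysophospholipids outside the lists, had 103, 222 and 132 (1.68-fold lower).

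ATF4 is translated when amino acids are short and drives genes of amino acid synthesis, import and tRNA charging. Of 39 listed genes over the floor, 4 were 1.5-fold higher with lactate, none was lower, and 35 lay above the median of all genes (list median 0.28). TRIB3, a pseudokinase that feeds back on ATF4, had 2282 normalized counts in control, 601 with oxamate and 1159 with lactate added (1.93-fold higher with lactate). ASNS, asparagine synthetase, had 1327, 312 and 495 (1.58-fold higher). STC2, a secreted glycoprotein, had 920, 489 and 773 (1.58-fold higher), and the mitochondrial carboxykinase gene PCK2, which makes phosphoenolpyruvate, had 1331, 389 and 604 (1.55-fold higher; PCK2 overlaps NRL). In all 4 the oxamate library was lowest and control highest. ATF4 mRNA had 4690, 3570 and 3586 (0.01), and CHAC1, a glutathione-degrading target, had 227, 249 and 272 (0.13). The enzymes of serine synthesis were spread, with PSAT1 at 4875, 1953 and 2572 (0.40) and PHGDH at 5926, 2784 and 3182 (0.19). KLHL24 was the lowest of the list, at 294, 395 and 333 (-0.25).

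Cytosolic aminoacyl-tRNA synthetases, which charge tRNAs, had a median of 0.16, with 19 of 23 genes over that of all genes and none 1.5-fold apart. SARS, for serine, had 2857, 1279 and 1715 normalized counts in control, oxamate and oxamate+lactate (0.42), and GARS, for glycine, had 3664, 2197 and 2682 (0.29). AARS, for alanine, which has also been described as a lactyltransferase, had 3972, 1971 and 2585 (0.39). Those with the lowest ratios were HARS, for histidine, at 811, 825 and 724 (-0.19) and FARSA, for phenylalanine, at 1924, 2781 and 2444 (-0.19). Amino acid transporters were split, with 13 of 25 above that median and none 1.5-fold apart. The glycine transporter SLC6A9 led them at 279, 104 and 155 (0.57), and the lysosomal carrier SLC38A7 was the lowest (-0.47).

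Of 22 enzymes of arginine, proline, asparagine and glutamine metabolism, 2 were 1.5-fold higher, ASS1 and ASNS, and 1 was lower, GLS2. ASS1, argininosuccinate synthase, which joins citrulline and aspartate on the way to arginine, had the highest ratio of the 12292 genes, at 3011, 439 and 859 normalized counts in control, oxamate and oxamate+lactate (1.95-fold higher with lactate). Oxamate+lactate lay well under control here. GLS2, a mitochondrial glutaminase, had 54, 98 and 65 (1.5-fold lower). It overlaps SPRYD4 in the annotation. Since the libraries carry no strand information, overlapping neighbours cannot be told apart.

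**Figure D2:**
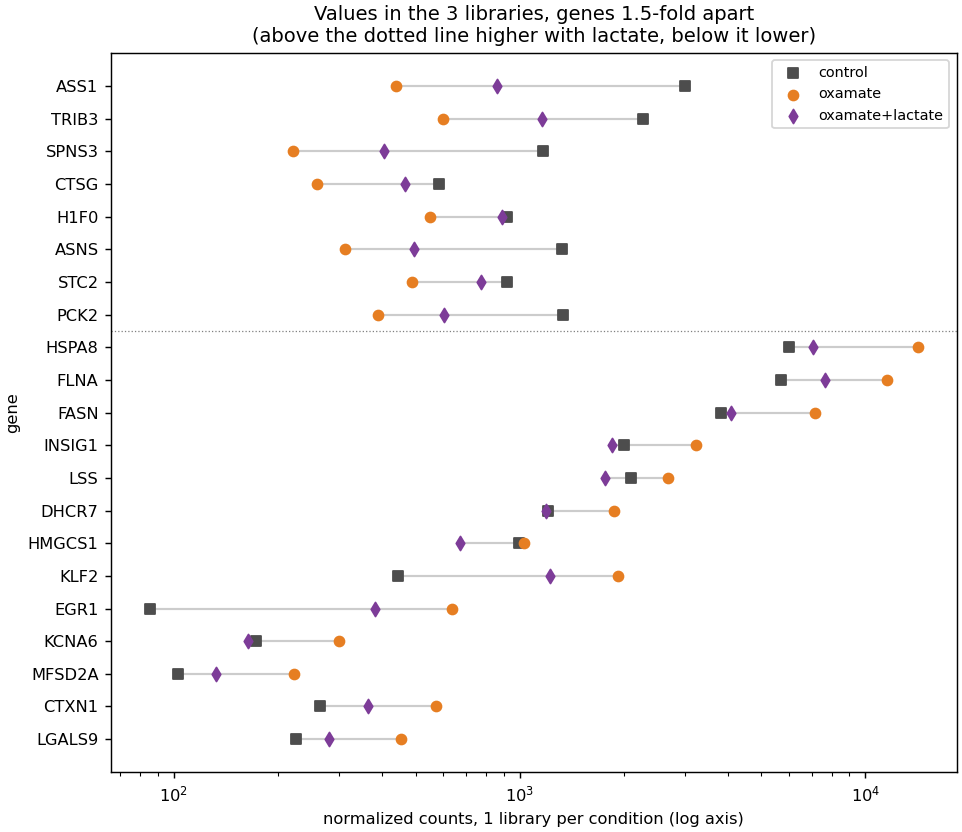
Normalized counts (x axis, log) of 21 genes at least 1.5-fold apart between oxamate (circles) and oxamate+lactate (diamonds), with control as squares, 1 library each. In the 8 genes above the dotted line oxamate is lowest, and in the 13 below it oxamate is highest, with oxamate+lactate at 672 against 998 in control for HMGCS1 and at 381 against 85 for EGR1.

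Among the other genes higher with lactate, SPNS3, a sphingolipid transporter relative, had 1169 normalized counts in control, 221 with oxamate and 404 with lactate added (1.82-fold higher with lactate). CTSG, which encodes the granule protease cathepsin G, had 583, 259 and 466 (1.80-fold higher). H1F0, the replication-independent linker histone H1.0, had 919, 552 and 889 (1.61-fold higher). In H1F0 control and oxamate+lactate were alike, whereas in SPNS3 oxamate+lactate stayed nearer to oxamate. HOXB9, a homeobox factor, had 186, 47 and 92 (1.94-fold higher; HOXB9 overlaps HOXB7), the only one of 16 HOX genes over the floor past 1.5-fold. SLC30A1, the zinc exporter of the plasma membrane, had 148, 64 and 98 (1.52-fold higher), the only gene of the 25 in the metal list to be 1.5-fold apart. RGS16, which ends G protein signalling, had 71, 29 and 50 (1.70-fold higher), the only one of 12 genes in the list of feedback genes of MAP kinase and G protein signalling past 1.5-fold. N4BP2L1 had 95, 97 and 159 (1.63-fold higher), with control and oxamate alike. POU6F1, a POU-domain factor, had 123, 71 and 116 (1.62-fold higher), ICA1 had 100, 57 and 107 (1.86-fold higher), and the sulfatase gene ARSG had 142, 83 and 132 (1.58-fold higher; ARSG overlaps SLC16A6 and WIPI1). The lymphocyte surface receptors picked out after their values were seen were CD96 at 115, 39 and 69 (1.75-fold higher; CD96 overlaps ZBED2), SIRPG at 115, 41 and 64 (1.55-fold higher) and LY9 at 103, 41 and 63 (1.52-fold higher). Also picked after their values were seen were AGA, a lysosomal amidase, at 82, 44 and 74 (1.67-fold higher), BMP8A, a bone morphogenetic protein, at 46, 41 and 64 (1.55-fold higher), the tetraspanin TSPAN9 at 81, 36 and 56 (1.54-fold higher), and MFAP4 at 121, 34 and 63 (1.83-fold higher; MFAP4 overlaps MAPK7).

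Immediate early genes are switched on by mitogen and antigen receptor signals without new protein synthesis. Of 23 over the floor, 2 were 1.5-fold lower with lactate, none was higher, and the median was -0.25. EGR1, a zinc finger factor, had 85, 636 and 381 normalized counts in control, oxamate and oxamate+lactate (1.67-fold lower). The list also holds KLF2, a factor of lymphocyte quiescence that the description above does not cover, at 446, 1922 and 1223 (1.57-fold lower). Both were far above control in the 2 treated libraries. ATF3, which is also an ATF4 target, was highest of the list at 167, 101 and 147 (0.54). Of 36 genes of the T-cell receptor complex and its kinases, 1 was 1.5-fold lower, the coreceptor CD8A at 74, 58 and 34 (1.69-fold lower), and the median was -0.04, a sign that changed under every other scaling. PTPN22, a phosphatase that restrains receptor signalling, was the highest at 210, 104 and 147 (0.50). Of 22 trafficking and surface receptors, 1 was past 1.5-fold, CNR2, the cannabinoid receptor of immune cells, at 136, 447 and 293 (1.52-fold lower). EOMES, a T-box factor of effector T cells outside the lists, had 66, 149 and 89 (1.67-fold lower).

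NOTCH receptors and targets, a pathway often active in T-lineage leukaemia, had 18 of 21 genes below the median of all genes (list median -0.23) and none 1.5-fold apart. NOTCH1 had 1352, 2327 and 1716 normalized counts in control, oxamate and oxamate+lactate (-0.44), and DTX1, a ubiquitin ligase and NOTCH target, was lowest at 437, 732 and 526 (-0.48). MAML1, a coactivator of NOTCH, had 737, 1010 and 774 (-0.38), and IGF1R, a growth factor receptor, had 812, 1256 and 1045 (-0.27). NOTCH3 was highest, at 335, 299 and 308 (0.04). The MYC network had a median of -0.21 over 14 genes, 5 of them above the median of all genes and none 1.5-fold apart. MYC itself had 2739, 5299 and 3922 (-0.43). The list ran from MNT, a repressor that competes with MYC for MAX, at 352, 570 and 391 (-0.54) to MYCBP, a MYC-binding protein, at 201, 164 and 205 (0.32). T-lineage transcription factors ran from ID1, an inhibitor of E proteins, at 162, 338 and 246 (-0.46) to TOX2 at 127, 48 and 68 (0.49), with a median of -0.13 over 28 genes and none 1.5-fold apart.

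The actin and tubulin list had a median of -0.22, with 27 of 39 genes below the median of all genes, and 1 gene 1.5-fold lower. The median level of this list was 1726, and genes with a mean of 1000 to under 2000 had a median log2 ratio of -0.12. FLNA, filamin A, which crosslinks actin, had 5713, 11563 and 7664 normalized counts in control, oxamate and oxamate+lactate (1.51-fold lower with lactate). TUBA1A, an alpha tubulin, had 1169, 1867 and 1282 (-0.54), VCL, vinculin, had 383, 493 and 350 (-0.49), and SRF, the factor that drives many actin genes, had 1212, 1788 and 1411 (-0.34). CORO1A, the leukocyte actin regulator, was at 3817, 2539 and 2547 (0.00). In the PI3K, AKT and FOXO list the median was -0.19 over 28 genes with none 1.5-fold apart, from IRS2, an insulin receptor substrate, at 94, 122 and 83 (-0.55) to FOXO1 at 82, 104 and 122 (0.23).

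**Figure D3:**
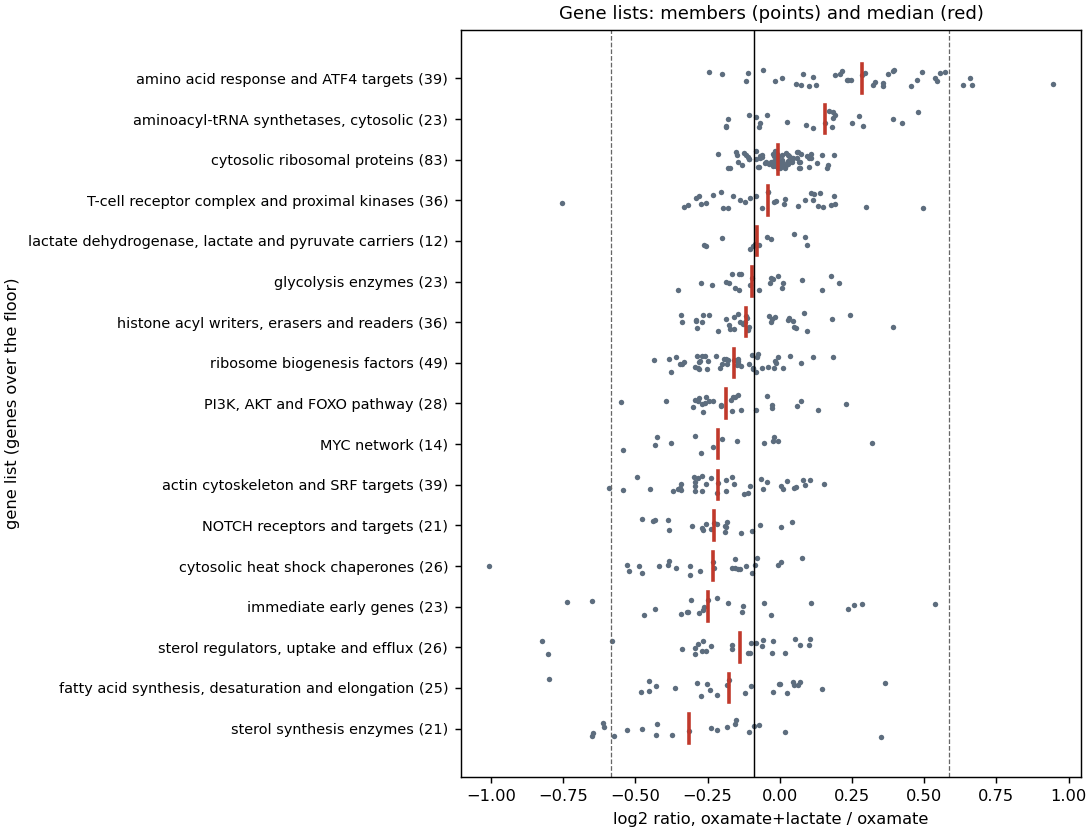
Log2 ratios of oxamate+lactate to oxamate (x axis) for the genes over the floor in 17 lists (y axis, number of genes in brackets), with each gene a point and the list median a red bar. The solid line is the median of all genes (-0.09) and the dashed lines are 1.5-fold; the amino acid response list lies to the right (median 0.28) and sterol synthesis to the left (median -0.31).

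None of the 12 genes of lactate dehydrogenase and of lactate and pyruvate transport was 1.5-fold apart, and their median was -0.08 beside -0.09 for all genes, a sign that turned under 2 of the 3 other scalings. LDHA had 4937, 4952 and 4648 normalized counts in control, oxamate and oxamate+lactate (-0.09) and LDHB had 7383, 7363 and 7000 (-0.07). SLC16A1, the lactate importer and exporter MCT1, was the lowest of the list at 1180, 1427 and 1190 (-0.26), and SLC16A3, the exporter MCT4, had 128, 112 and 116 (0.05). The mitochondrial pyruvate carrier subunits MPC1 and MPC2 had 303, 315 and 274 (-0.20) and 475, 477 and 463 (-0.04). None of 36 writers, erasers and readers of histone acyl marks was 1.5-fold apart (list median -0.12). EP300, described as a lactyltransferase as well as an acetyltransferase, had 1164, 1548 and 1287 (-0.27), KAT2A had 783, 1154 and 910 (-0.34), and the delactylases HDAC1 and HDAC3 had 3299, 3408 and 3164 (-0.11) and 839, 758 and 700 (-0.11). Glycolysis, with 23 genes, and the pyruvate dehydrogenase and TCA cycle list, with 35, also held no gene 1.5-fold apart (list medians -0.10 and -0.08, with the sign turned under 1 and 2 of the 3 other scalings).

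Among the other genes lower with lactate, KCNA6, a voltage-gated potassium channel, had 173 normalized counts in control, 300 with oxamate and 164 with lactate added (1.82-fold lower with lactate; KCNA6 overlaps GALNT8). KCNIP2, a channel-interacting protein, had 67, 70 and 46 (1.51-fold lower), and these were the 2 of 54 genes of the ion channel and pump list past 1.5-fold (list median -0.19). SLC17A9, the vesicular nucleotide transporter, had 42, 103 and 64 (1.60-fold lower), and SLC15A2, a peptide transporter, had 50, 86 and 57 (1.5-fold lower). With SLC30A1 they were the 3 of 197 solute carriers past 1.5-fold, beside 1.16% of all genes. Of 32 interferon response and antigen presentation genes, 1 was past 1.5-fold, the antiviral membrane protein IFITM3 at 60, 80 and 48 (1.65-fold lower), and the list median was -0.09, as over all genes. The interferon-inducible GTPase GBP1, outside that list, had 219, 346 and 205 (1.68-fold lower), and ISG20, an exonuclease within it, lay just outside 1.5-fold in the other direction at 44, 52 and 78. Of 330 ZNF zinc finger genes 2 were lower, beside 0.903% of all genes. The 2 were ZNF341 at 71, 118 and 74 (1.59-fold lower) and ZNF416 at 57, 72 and 47 (1.52-fold lower; ZNF416 overlaps ZIK1).

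Among the lower genes that no list held, picked after their values were seen, were CTXN1 at 264, 571 and 363 normalized counts in control, oxamate and oxamate+lactate (1.57-fold lower), LGALS9, the lectin galectin-9, at 226, 455 and 281 (1.62-fold lower), CMPK2, a mitochondrial nucleotide kinase, at 167, 289 and 177 (1.63-fold lower; CMPK2 overlaps RSAD2), and the adaptors DOK3 at 102, 208 and 127 (1.63-fold lower) and PIK3AP1 at 99, 183 and 113 (1.61-fold lower). In each of these the oxamate library was the highest. KRT1, a keratin, had 14, 89 and 48 (1.84-fold lower), TWIST1 72, 129 and 82 (1.57-fold lower) and FN1, fibronectin, 42, 80 and 50 (1.59-fold lower). ADAT3, a tRNA deaminase subunit, had 27, 100 and 56 (1.77-fold lower; ADAT3 overlaps SCAMP4). BCORL1, a corepressor, had 244, 417 and 273 (1.53-fold lower), MEX3B, an RNA-binding ubiquitin ligase, had 195, 379 and 251 (1.51-fold lower), and the small GTPase gene RAB5B had 112, 148 and 93 (1.59-fold lower). FANCB, of the Fanconi anaemia core complex, at 111, 98 and 64 (1.52-fold lower), had its highest value in control rather than in oxamate.

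Noncoding and unnamed genes were a large share of the lower set. Of the 111 lower genes, 36 (32.4%) had a name given by a genomic clone, as many unnamed long noncoding RNAs and pseudogenes do, against 8.97% of the 12292 genes and 3 of the 31 higher genes. Of all clone-named genes 3.27% were 1.5-fold lower, and of the others 0.67%. Clone-named genes had low values, with a median level of 115 against 371 for the others. Among genes with a mean of 50 to under 200, 4.01% of the clone-named and 1.71% of the others were 1.5-fold lower. Among those of at least 200 it was 1.32% (4 of 303 genes) and 0.251%. These ranges do not match the levels, since the clone-named genes had lower medians in each, 93 against 111 and 327 against 551. Of 256 genes with names of long noncoding RNAs, 7 were lower and 1 was higher (0.903% of all genes were lower and 0.252% higher). The median level of this list was 132. Of all genes with a mean of 50 to under 100, 3.58% were lower, and at 100 to under 200 it was 1.03%. CAPN10-AS1, antisense to CAPN10, had 60, 98 and 49 normalized counts in control, oxamate and oxamate+lactate (1.98-fold lower with lactate), ARAP1-AS2 had 86, 138 and 84 (1.64-fold lower; ARAP1-AS2 overlaps ARAP1), and DICER1-AS1 had 102, 50 and 76 (1.51-fold higher; DICER1-AS1 overlaps DICER1). Since strand is not marked, an antisense RNA cannot be told apart from its partner. MIR762, at 74, 114 and 63 (1.80-fold lower), lies in BCL7C, and such a row in polyadenylated RNA gives reads across a hairpin's locus, not the mature microRNA.

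**Figure D4:**
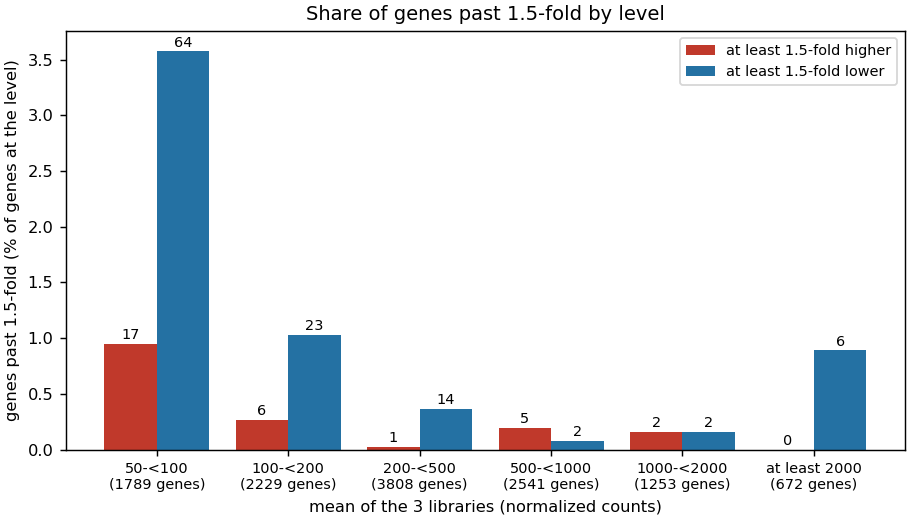
Share of genes at least 1.5-fold higher (red) or lower (blue) with lactate, in percent of the genes at each level (y axis), by mean of the 3 libraries in normalized counts (x axis), with the number of genes over each bar. The lower share goes from 3.58% at means of 50 to under 100 to 0.0787% at 500 to under 1000, and is 0.893% at 2000 and above, where no gene is 1.5-fold higher.

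The share of genes past 1.5-fold varied with level. So did the median log2 ratio, from -0.05 at means of 50 to under 100 to -0.13 at 2000 and above. Counts of list genes above or below the median of all genes were not adjusted for this. Of the 142 genes, 110 had a mean under 200, which holds 32.7% of all genes over the floor. At means of 50 to under 100, 4.53% of 1789 genes were 1.5-fold apart, and the SD of the log2 ratio across genes was 0.28. At 500 to under 1000, 0.275% of 2541 genes were apart, with an SD of 0.14. At 2000 and above, 672 genes had 6 lower and none higher, 0.893% in all. They include HSPA8, FLNA, FASN, INSIG1 and LSS, of which the last 3 belong to fatty acid or sterol synthesis or its control. The 7 higher genes with a mean of at least 500 were ASS1, TRIB3, SPNS3, H1F0, ASNS, STC2 and PCK2. The number of reads behind a value is unknown, so the part of counting noise in these ratios was not tested. Nearest the threshold, ITGA7 (45 in oxamate and 68 in oxamate+lactate, 1.5-fold higher) and KTI12 (188 and 125, 1.5-fold lower) lay just inside, and S1PR3 (115 and 172, 1.49-fold higher) and NR1H3 (150 and 100, a log2 ratio of -0.58) just outside.

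Beside control, which was not used to choose the genes except through the floor, the 2 sets differed in place. The oxamate library enters both its ratio to control and the ratio that chose the genes, so opposite signs follow in part from that choice, and the values are given side by side only. For the 31 higher genes the median log2 ratio was -1.13 for oxamate against control (quartiles -1.65 and -0.74) and -0.42 for oxamate+lactate against control (quartiles -0.88 and -0.05). For the 111 lower genes the medians were 0.72 (quartiles 0.38 and 0.99) and 0.05 (quartiles -0.30 and 0.31). Over all genes they were 0.08 and -0.01. Median values of the higher set were 115 in control, 54 with oxamate and 92 with lactate added, and those of the lower set 78, 114 and 71.

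Several large gene groups lay close to the median of all genes with no gene 1.5-fold apart. Cytosolic ribosomal proteins had a median of -0.01 over 83 genes, with the sign turned under each other scaling and 71 genes over that of all genes. Nuclear respiratory chain subunits had a median of -0.07 over 78 genes, mitochondrial ribosomal proteins -0.06 over 71, proteasome subunits -0.08 over 46 and DNA replication genes -0.10 over 50. Ribosome biogenesis factors had a median of -0.16, with 14 of 49 genes over that of all genes. Endoplasmic reticulum chaperones had a median of -0.11 over 28 genes, and their lowest was HSPA5, the lumenal HSP70, at -0.55. Among targets of the hypoxia factor outside glycolysis, EGLN2, an oxygen-sensing hydroxylase, was at -0.56 and VEGFA, a vascular growth factor, at 0.55, on either side of a median of -0.04 over 19 genes.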

How the data were processed

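RNA was sequenced from 3 Jurkat libraries, 1 per condition. The deposited table holds the authors' normalized counts, rounded to whole numbers and treated here as a score, since neither the normalization nor the reads per library are given in the sources used here. The submitters' processing notes name FastQC 0.11.9, STAR 2.7.1a, HTSeq 0.11.2 and hg19. Depth is therefore unknown, and no count model, interval or p-value was computed. For genes with a mean of at least 50 over the 3 libraries, log2((oxamate+lactate + 1)/(oxamate + 1)) was computed in Python 3.11.15 with pandas 2.3.3, and also relative to the median ratio. The ratio script was tested on simulated data with larger changes, set only in genes of higher value. False calls were not counted, so the test does not bear on 1.5-fold calls at low values.

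The genes described and the 54 lists (53 with a gene over the floor) were chosen with earlier results of these data known. Named genes were the 15 highest and 15 lowest with a value of at least 100, the 10 most abundant each way, list members past 1.5-fold, list extremes, 3 either side of the threshold and 16 lactate, lactylation and regulator genes. Not all of them are printed, and list genes given outside this rule (such as BAG1, IDI1, SQLE, CHAC1 and GARS) were picked after their values were seen. A few genes that meet this rule are not reported here. Gene families found by name were trimmed, and motif letters, the promoter stretch and the reading of both sterol lists as one group for the promoters were settled, after values were seen. Overlaps come from GENCODE 29 and are not stated for every gene named. Among those left out, TM7SF2 overlaps VPS51, NR1H3 overlaps ACP2 and SLC6A9 overlaps CCDC24. Scaling, pseudocount and floor alternatives were run.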

Additional observations from a re-analysis of the deposited data

How the results depend on the processing

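The count of genes at least 1.5-fold higher with lactate (31) was 20 with a pseudocount of 10, 66 relative to the median ratio, 78 at equal gene totals, 56 at equal ERCC sums, 122 at a floor of 20, 8 at a floor of 200 and 663 with no floor. The count lower (111) was 52 relative to the median ratio, 42 at equal gene totals, 68 at equal ERCC sums, 309 at a floor of 20, 24 at a floor of 200, 864 with no floor, and 64 once a trend with GC content and length was removed, an alternative chosen after seeing the data. That setting covers only the 10736 genes with a GC value, and 69 of the 111 lower genes have one, so most of the fall comes from genes left out. Fewer or more genes are also tested when the floor moves; for the other settings the cause was not tested. Of the 142 genes, 100 were still 1.5-fold apart with a pseudocount of 10 and 83 relative to the median ratio. At equal gene totals 73 were, and at equal ERCC sums 99. In these settings 0 changed sign, which was fixed in advance. A larger pseudocount cannot reverse a ratio, and the scalings shift ratios by far less than 1.5-fold. Equal gene totals moved every ratio by about 0.11 and the median of all genes to 0.02. A value was counted as moved where it shifted by more than the SD of the ERCC ratios at a mean of at least 50 (0.13), a yardstick chosen with those ratios known. By it 0 of 530 list medians and 2 of 799 gene values moved, and by the narrower SD at a mean of at least 100 (0.111) 0 and 6 moved. The 3 scalings shift all ratios by nearly the same amount, at most about 0.11, just under that SD. No value could therefore count as moved under them, so these counts do not show that the ratios are stable to scaling. List medians from -0.10 up to 0 changed sign under at least 1 of the 3 scalings. No paired analysis was possible because each condition has 1 library, and for the same reason none could be left out. Depth is unknown, so what it limits at low values could not be measured.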

Other observations

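Of 5037 genes under the floor of 50, 632 were 1.5-fold higher and 753 lower with lactate. Of these, 114 had a value of at least 40 in one of the 2 treated libraries (24 higher and 90 lower). Genes entered that count through the treated library where they were high. How many genes under the floor reached 40 in all was not counted, so no share stands beside the 24 and 90. With no floor the median log2 ratio of all genes was -0.08. The examples here were chosen after their values were seen. CD28, the costimulatory receptor of T cells, had 3 normalized counts in control, 66 with oxamate and 20 with lactate added. SPRY4, a feedback inhibitor of MAP kinase signalling, had 28, 76 and 38, and LIME1, a membrane adaptor of lymphocyte kinases, had 37, 51 and 26. The long noncoding RNA LINC00925 had 22, 66 and 16. In the other direction, MIAT had 27, 23 and 45, APLF, a DNA end-joining factor, had 26, 21 and 41, and RIMS2 had 52, 24 and 44.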
